A study of Mus musculus with 6 samples.

Results

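Ribosomal protein genes encode the structural proteins of the cytoplasmic ribosome. Members were every gene symbol made of Rpl or Rps, a number and an optional a, x, l or l1, together with Rplp0, Rplp1, Rplp2 and Rpsa. Pseudogene symbols ending in -ps and the Rps6k kinases were left out. The rule found 83 of 38926 gene symbols, and 80 of the 83 had enough reads to be tested. They comprised 30 proteins of the small subunit, 43 of the large subunit, 3 of the P-stalk and 7 named as paralogs, with symbols that end in l or l1. The 3 untested members were Rpl10l, Rpl39l and Rps12l1, of which Rps12l1 has no annotated messenger RNA.

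The libraries were made from total RNA of entire dorsal root ganglia, taken at L3, L4 and L5, in which the cell bodies of sensory neurons lie among glia. All 6 libraries came from wild-type male C57BL/6 mice aged 6 to 8 weeks. The burn group held 3 libraries collected 3 days after a burn injury, and the control group held 3 libraries. The title of 1 burn library, called burn 3 here, carries the letters IP, which the series' design text explains as ipsilateral. The labels give no side for the other libraries, no burn site, no treatment of the controls, and no statement of whether each library is a separate animal. Any p-value therefore measures only the spread between these libraries, which may be technical.

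A ribosome joins a small subunit, which reads the messenger RNA, to a large subunit, which forms the peptide bonds. The P-stalk of the large subunit, built from Rplp0, Rplp1 and Rplp2, recruits the elongation factors. Ribosomal protein messenger RNAs belong to the class that starts with a 5′ terminal oligopyrimidine tract and is translated under mTOR control, and ribosomal protein genes have given rise to many intronless processed pseudogenes.

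The sequence copies of these genes bear on how their reads can be counted, so a few are shown first. The messenger RNA of each member was searched, in windows of 75 bases, the read length, against all other annotated transcripts of GENCODE mouse release 21 on GRCm38. Of 82 members with an annotated messenger RNA, 61 had at least 50% of the windows of their coding sequence present, base for base, in another gene. In 24 members every coding window had such a copy, and in 4, among them Rps3, Rpl3l and Rpl39l, none had. A copy that holds the whole coding sequence was found for 15 members, as 17 copies. The coding sequence of Rpl38, a large-subunit protein, shows what this means. It stands entire in a processed pseudogene, and capitals mark the 2 bases that flank each exon junction of the parent gene.
Rpl38, also in Rpl38-ps2: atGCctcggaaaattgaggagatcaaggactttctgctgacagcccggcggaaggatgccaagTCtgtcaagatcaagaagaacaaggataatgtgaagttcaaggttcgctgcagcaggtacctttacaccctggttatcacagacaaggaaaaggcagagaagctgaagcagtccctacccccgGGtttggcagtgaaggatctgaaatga

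Rpl38 lies at chr11:114668524-114672331, with 213 coding bases and 3 junctions, and Rpl38-ps2, which carries the same coding bases without introns, at chr6:140746960-140747172. These positions are those of GENCODE mouse release 21 on GRCm38.

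Other copies differ at few bases, so that some reads can be told apart. Rpl9-ps6 (chr19:32465865-32466578), which the annotation lists as a protein-coding gene, had 1 mismatch to Rpl9 (chr5:65388364-65391444) over 692 aligned bases. Rpl3-ps1 (chrX:13202571-13203780) had 2 mismatches to Rpl3 (chr15:80077791-80091868) over 1210 aligned bases. The windows below hold 1 difference each, in capitals, with positions counted from 1 at the window's 5′ end. The difference is G38A for Rpl9 and C38A for Rpl3, with the parent's base first.
Rpl9: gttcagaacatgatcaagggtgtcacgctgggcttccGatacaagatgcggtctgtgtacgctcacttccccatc
Rpl9-ps6: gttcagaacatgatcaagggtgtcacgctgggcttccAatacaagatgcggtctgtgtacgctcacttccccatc
Rpl3: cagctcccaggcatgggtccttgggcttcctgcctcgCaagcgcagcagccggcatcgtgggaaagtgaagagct
Rpl3-ps1: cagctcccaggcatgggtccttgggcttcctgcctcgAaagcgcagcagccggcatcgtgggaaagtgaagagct

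Across the whole series, libraries held from 17273908 reads in genes (control 2) to 81968142 (control 3). The 2 deepest libraries were control 3 and burn 3, 1 in each group, and the first principal component of all genes, with 39.43% of the variance, separated them from the other 4. Alignments that were not unique were tallied outside the genes and made up 34.66% to 42.84% of all entries. Markers of sensory neurons were present in every library, at 0.738% to 1.04% of reads in genes for 10 genes. Markers of satellite glia (0.28% to 0.359%, 6 genes) and Schwann cells (0.283% to 0.672%, 5 genes) were present too, so the libraries were not of neurons alone. Skeletal muscle transcripts (14 genes) took 0.0744% to 1.31%. A list of 12 spinal cord markers took 0.126% to 0.278%. It holds Mbp and Gfap, genes of myelin and glia, so its sum does not measure spinal cord tissue alone. No marker of these lists was at 0 in all libraries. In such bulk tissue, fewer cells of a type and less RNA per cell cannot be told apart.

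No ribosomal protein gene passed the test between burn and control. Of the 80 members, 0 were called by edgeR's quasi-likelihood test at an adjusted p under 0.05, and 1 had an unadjusted p under 0.05. Over all 17534 genes tested, 4 were called (0.0228%) and 2.96% had an unadjusted p under 0.05, against 1.25% of the members. DESeq2 and limma-voom also called 0 members. The 1 member with an unadjusted edgeR p under 0.05 was Rps27, higher after burn. With DESeq2 1 member had an unadjusted p under 0.05, but it was lower after burn. Among members higher after burn, 0 reached it with DESeq2, so the edgeR result for Rps27 did not hold there. With limma-voom 2 had, 1 higher and 1 lower.

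The intervals were narrow for most members. The 95% interval of the fold change lay within a 2-fold change either way for 70 of 80 members (87.5%), against 82.1% of all genes tested. It lay within a 1.5-fold change for 54 members (67.5%), against 54.9% of all genes. The fold change was above 0 on the log2 scale in 49 members (61.2%) and in 52.1% of all genes. The median log2 fold change of the members was 0.04 and that of all genes tested 0.01. Single members ran from -0.41 (Rps16) to 0.96 (Rps27). The member median was -0.03 without control 3 and 0.10 without control 1, so its sign rested on single libraries. It was -0.001 without burn 1. Some marker lists of other cells had larger medians. The log2 fold changes of the spinal cord markers had a median of 1.37, with 12 of 12 above 0. Of these 12, 10 had an unadjusted edgeR p under 0.05 and 6 had groups that did not overlap, against 2.96% and 7.24% of all genes tested. Their summed share of reads did overlap between groups, at 0.146%, 0.278% and 0.171% in control 1, 2 and 3 and 0.215%, 0.126% and 0.272% in burn 1, 2 and 3. The log2 fold changes of dividing-cell markers had a median of -0.65, with 8 of 8 below 0. The medians were 0.27 for 8 macrophage genes (0.0178% to 0.0424% of reads), -0.41 for 6 erythroid genes (0.123% to 0.294%), -0.12 for sensory neurons and also for muscle, -0.05 for satellite glia and -0.08 for Schwann cells. No gene of these lists was called, and their part in the values of the members was not tested.

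**Figure D1:**
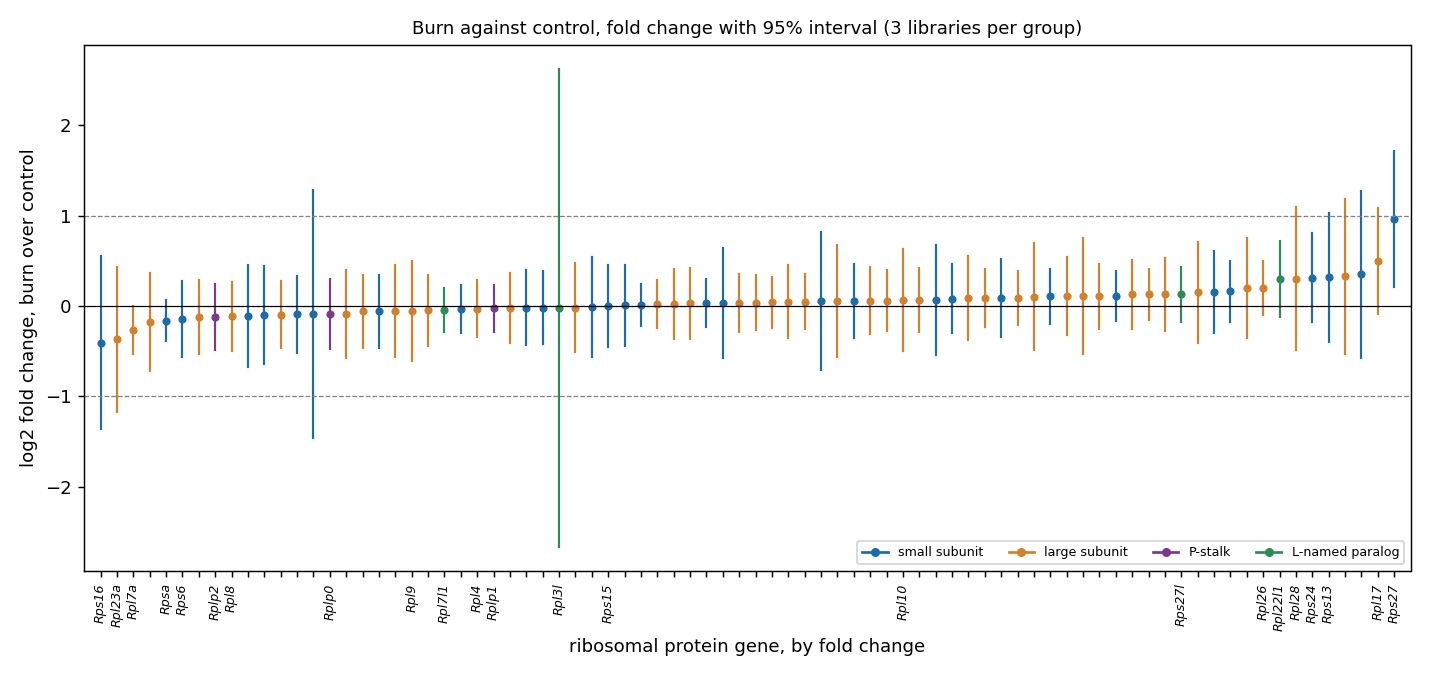
Log2 fold change of burn over control for the 80 tested ribosomal protein genes, in order of size, with the 95% interval of the edgeR fit as a line, names for the genes singled out by rule, and the gene's class as the colour. Most points sit close to 0 and most intervals lie inside the dashed lines of a 2-fold change, and the widest interval belongs to Rpl3l.

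The medians of the subunits lay close together. The 30 small-subunit genes had a median log2 fold change of 0.02 and the 43 large-subunit genes one of 0.05. All 3 stalk genes were slightly negative, with a median of -0.09. Within a library, reads of small-subunit genes were 0.740, 0.729 and 0.670 times those of large-subunit and stalk genes in control 1, 2 and 3. In burn 1, 2 and 3 the ratio was 0.742, 0.748 and 0.684. The lowest value of each group came from its deepest library, and the groups overlapped.

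Rps27, a small-subunit protein with a zinc finger, had the largest positive fold change and the lowest p. It was counted with 9, 3 and 22 reads in control 1, 2 and 3 and with 12, 15 and 28 in burn 1, 2 and 3. Its level was 0.230 ± 0.0565 CPM in controls and 0.484 ± 0.0532 CPM after burn (mean ± SD, n = 3 each; CPM are reads scaled to a common library size, with TMM factors). The groups did not overlap. The log2 fold change was 0.96 (SE 0.33; edgeR, adjusted p = 0.9998). All its coding windows have a copy elsewhere. With the reads of its only assigned pseudogene copy, Gm19246, added, the log2 fold change was 0.51 and no longer reached an unadjusted p under 0.05. Gm19246 holds 11.15% of the Rps27 windows of 50 bases, while 98.65% of them have a copy in some other gene. Reads on its other copies were not added.

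Groups also did not overlap for Rpl7a and Rpsa, which makes 3 of 80 members (3.75%), against 7.24% of all genes tested. Rpl7a, a large-subunit protein, had 25.04, 25.54 and 23.84 CPM in controls and 21.69, 21.82 and 18.50 CPM after burn. Each burn library was below each control library, and the log2 fold change was -0.26 (SE 0.12), with an edgeR adjusted p of 0.9998. Of its coding windows 89.4% have a copy, and its assigned copies held 4.57% of the reads of gene plus copies. Rpsa, the small-subunit protein also known as the laminin receptor, had 44.05, 46.24 and 42.8 CPM in controls and 41.3, 40.3 and 37.3 CPM after burn. It too was lower in every burn library. Burn minus control was -0.16 on the log2 scale (SE 0.10; edgeR adjusted p = 0.9998). Of the coding windows of Rpsa 90.5% have a copy, and its assigned copies held 43.2% of the reads of gene plus copies. The most-read copy, Rpsa-ps10, had 7832 reads and a log2 fold change of -0.007 (SE 0.22). The separation of the groups for Rpsa thus covers only the reads counted on the gene itself.

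Among the other small-subunit genes chosen by p, Rps24 had 55.5, 51.6 and 37.8 CPM in controls and 69.4, 66.7 and 44.0 CPM after burn. The 2 deepest libraries gave its lowest values in each group, the groups overlapped, and the log2 fold change was 0.31 (SE 0.21), or 0.17 without control 3 and 0.51 without burn 3. Rps6, the protein phosphorylated by S6 kinase downstream of mTOR, had 3.33, 3.34 and 2.87 CPM in controls and 3.05, 2.85 and 2.74 CPM after burn. Burn minus control was -0.14 on the log2 scale (SE 0.18), or 0.03 with the reads of its copies added. Rps16 had 0.328, 0.501 and 0.779 CPM in controls and 0.574, 0.397 and 0.335 CPM after burn. Control 3 was the highest, and the log2 fold change was -0.41 (SE 0.41) with it and 0.08 without it.

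Among the large-subunit genes, Rpl17 had 3.22, 2.17 and 2.24 CPM in controls and 4.55, 3.31 and 3.03 CPM after burn, with a log2 fold change of 0.50 (SE 0.25). The groups overlapped, since control 1 was above burn 3. Rpl26, a protein near the exit of the peptide tunnel, had 73.9, 56.2 and 58.6 CPM in controls and 70.1, 74.4 and 72.4 CPM after burn, and its log2 fold change was 0.20 (SE 0.13). Control 1 alone was at the level of the burn libraries. Rpl23a, at 0.737, 0.668 and 0.390 CPM in controls and 0.398, 0.497 and 0.441 CPM after burn, had a log2 fold change of -0.37 (SE 0.35). It was -0.15 without control 1, -0.65 without control 3 and -0.13 with the reads of its copies added. All of these had an adjusted p of 0.9998 with edgeR.

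The stalk genes carried small negative fold changes. Rplp0 had 319, 327 and 231 CPM in controls and 291, 295 and 239 CPM after burn, with a log2 fold change of -0.09 (SE 0.17). Rplp1 had 242, 285 and 252 CPM in controls and 260, 252 and 251 CPM after burn, with a log2 fold change of -0.03 (SE 0.11). Rplp2 had 50.5, 48.97 and 35 CPM in controls and 45.05, 38.78 and 39.99 CPM after burn, with a log2 fold change of -0.12 (SE 0.16). The groups overlapped for all 3. Rplp0 is often used as a reference gene, and in these libraries it was lowest in the 2 deepest ones.

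Summed over all 83 members, ribosomal protein genes took 0.567% of the reads in genes in control 1, 0.577% in control 2 and 0.416% in control 3. They took 0.552% in burn 1, 0.551% in burn 2 and 0.431% in burn 3. The 95% Wilson intervals spanned at most from 0.573% to 0.580% (control 2) and cover counting error only. The group means were 0.520% ± 0.0899 in controls and 0.511% ± 0.0696 after burn (SD, n = 3 each). Their difference of -0.00861 percentage points was far below the spread within groups, and the 2 low values were those of the 2 deepest libraries.

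**Figure D2:**
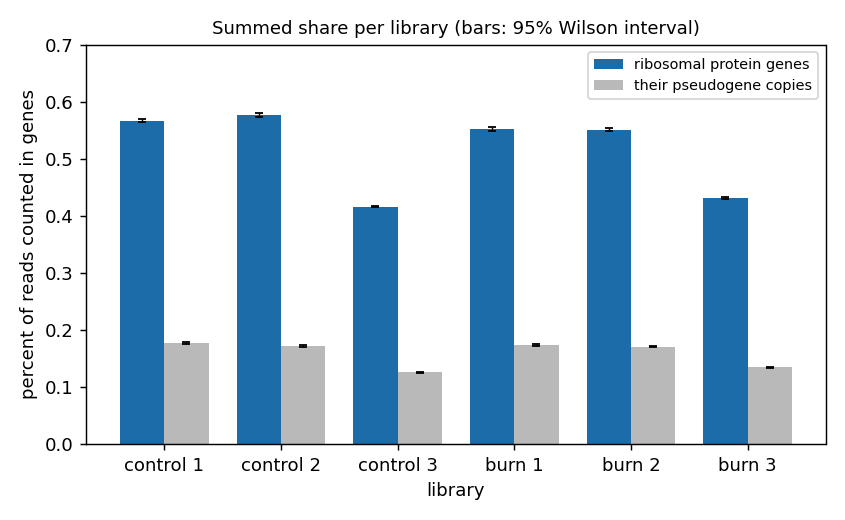
Percent of reads in genes held by the 83 ribosomal protein genes (blue) and by their assigned pseudogene copies (grey) in each library, with 95% Wilson intervals as error bars. Control 3 and burn 3 are lower than the other 4 libraries in both sums, at 0.416% and 0.431% for the genes.

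Member levels differed more between the deepest libraries and the rest than between burn and control. In the 2 deepest libraries 70 of the 80 tested members were lower than in the other 4, with a median difference of -0.26 on the log2 scale, against -0.015 over all genes tested. Apart from the paralog Rpl3l, the lowest differences were those of Rps12 (-0.77), Rpl41 (-0.74) and Rps21 (-0.71), which were chosen after their values were seen. Rps23 went furthest the other way, at 1.33, with 1.32 CPM in control 3 and 1.51 CPM in burn 3 against 0.278 to 1.065 CPM in the other libraries. Mitochondrial transcripts moved with the same split, at 4.41% and 5.44% of reads in the 2 deepest libraries and 1.71% to 2.70% in the others. The summed markers of skeletal muscle, dividing cells and macrophages were lower in both deepest libraries than in any other. Those of the remaining lists did not divide the libraries this way. Sensory neuron markers were highest in control 3 (1.04%) and lowest in burn 3 (0.738%), and erythroid markers were lower in burn 2 (0.149%) than in burn 3 (0.173%). The median differences of the markers between the deepest libraries and the rest were -2.41 for skeletal muscle, -0.80 for dividing cells, -0.71 for macrophages, -0.65 for erythroid cells and -0.18 for spinal cord. They were 0.40 for satellite glia, 0.36 for Schwann cells and 0.145 for sensory neurons. The part of any of these in the split was not tested. Between burn 3 and control 3 the median member difference was 0.11 on the log2 scale, and between the groups of the other 4 libraries it was 0.001. The sign was the same in both sets for 42 of 80 members.

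Levels per length covered a 3320-fold range from Rps13 to Rplp1. With the length of the searched messenger RNA the range was 1180-fold and the lowest gene was Rps16, and with the longest transcript it was 2920-fold. On the scale of CPM per kilobase of annotated exon, averaged over the 6 libraries, the median member stood at 13.7 and the median of all tested genes with a length at 4.57. Of the 80 members, 16 were in the top 5% of genes and 21 were under the median of all genes. The highest was the stalk protein Rplp1, at 520 ± 45.3 CPM per kilobase in controls and 510 ± 9.77 after burn (SD, n = 3 each). Rps15 followed at 241 ± 46.9 and 241 ± 45.2, then Rpl8 at 199 ± 37.9 and 183 ± 14.3. Rpl4 stood at 185 ± 14.8 and 182 ± 21.8, and Rplp0 at 176 ± 32.3 and 166 ± 18.8. On this scale Rplp1 was separated from the rest by more than the spread, while Rpl8, Rpl4 and Rplp0 lay within each other's spread. The order depended on the length used. Per kilobase of the searched messenger RNA, Rplp1 had a mean of 514.8 CPM over the 6 libraries. Rps14 followed at 449.6 and Rpl13a at 308.2, while Rpl4 stood at 239.5 and Rplp0 at 208.8. The spread was not computed for that length.

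At the other end of the scale per kilobase of all exons, Rps13 had 0.138 ± 0.0303 CPM per kilobase in controls and 0.172 ± 0.00832 after burn. Rps27, Rps16, Rpl28 and Rpl23a came next, with means over the 6 libraries of 0.342, 0.384, 0.489 and 0.616 CPM per kilobase. Of these 5 genes, only Rps27 had groups that did not overlap. In Rps27, Rps16, Rpl28 and Rpl23a every coding window has a copy in another gene, and in Rps13 99.2% of them have. Rpl28 and Rpl23a also share exon sequence with a gene on the other strand (Ube2s and Tlcd1), and whether counting used strand is not known, so their reads cannot be assigned with certainty.

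The counted level followed the share of copied coding sequence across all tested members. The median was 112 CPM per kilobase in the 19 members with under 50% of their coding windows copied. It was 13.9 in the 37 members with at least 50% but not all copied, and 1.8 in the 24 members with all windows copied. Across the 80 genes, which share the same libraries, Spearman's rho between the copied share and the level was -0.752, and it was -0.745 and -0.741 with 2 other measures of length. With windows over the whole messenger RNA in place of the coding sequence it was weaker, from -0.459 to -0.539 at 75 bases and from -0.352 to -0.433 at 50 bases. Rps3, which has no copied window, stood at 83.2 ± 16.8 CPM per kilobase in controls. Rps29, with every coding window copied, stood at 0.677 ± 0.189 CPM per kilobase in controls. Rpl3l, also without a copied window, was the lowest of the members with under 50% copied, at 6.37 CPM per kilobase over the 6 libraries. Rpl41 stood apart among the fully copied genes, at 85.1 CPM per kilobase, and has a coding sequence of only 78 bases, so that few windows were searched. The part of copies in these levels was not tested with reads.

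**Figure D3:**
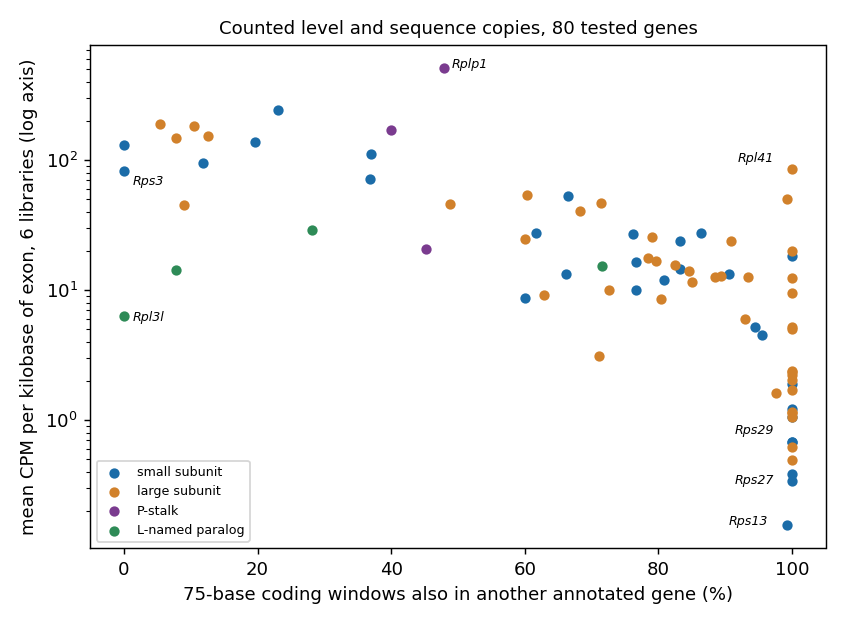
Mean CPM per kilobase of exon over the 6 libraries (log axis) against the percent of 75-base coding windows found in another annotated gene, for the 80 tested members, coloured by class. Levels fall from the left, where Rps3 has no copied window, to the right, where Rps27 has all windows copied and Rps13 99.2% of them.

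Reads were also counted on the copies themselves. By shared sequence, 305 copies were assigned to 65 members, and 279 of them had at least 1 read. The annotation lists 301 as processed pseudogenes and 4 as protein-coding genes, whose symbols also end in -ps and a number (Rpl9-ps6, Rpl10-ps3, Rpl36a-ps1 and Rps12-ps3), and all are called pseudogene copies here. Together they held 23.58% of the reads of members plus copies, and 22.54% without the 4. Rpl41, with 100% of its coding windows copied, and Rps20, with 83.2%, had 0 assigned copies, so these shares cover only part of the copied sequence. In 19 members the copy with the most reads had more reads than the member itself, and in 8 it had at least 10 times as many.

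Rps29 was the extreme case. Over the 6 libraries it was counted with 114 reads and its pseudogene copy Gm14303 with 22794. In control 1, 2 and 3 the copy had 3373, 1536 and 7529 reads and Rps29 had 13, 11 and 35. In burn 1, 2 and 3 the copy had 2226, 2859 and 5271 reads and Rps29 had 13, 12 and 30. The copy was far above the parent in every library of both groups, and burn minus control for the copy was 0.004 on the log2 scale (SE 0.12; edgeR adjusted p = 0.9998).

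Rpl38, with 145 reads, and Rpl38-ps2, with 8711, followed the same pattern. The copy had from 824 reads in burn 1 to 2363 in burn 3, and its log2 fold change was -0.002 (SE 0.21). Rps13 had 102 reads against 8473 on Rps13-ps2, and Rps16 had 130 against 4728 on Rps16-ps2. Rpl9 had 1160 reads against 21557 on Rpl9-ps6, the near-copy whose single difference in the printed window is G38A, and the copy's log2 fold change was 0.09 (SE 0.30). The remaining 3 genes with a ratio of at least 10 were Rpl12 (941 reads against 14635 on Gm10275), Rpl11 (698 against 9193 on Gm10288) and Rpl10a (1250 against 13854 on Rpl10a-ps1). Rpl12 and Rpl10a are also among 20 members that share exon sequence with a gene on the other strand (Lrsam1 and CT025652.2). Their reads too cannot be assigned with certainty. Rpl3, with 9647 reads, and Rpl3-ps1, with 19383, differed less.

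**Figure D4:**
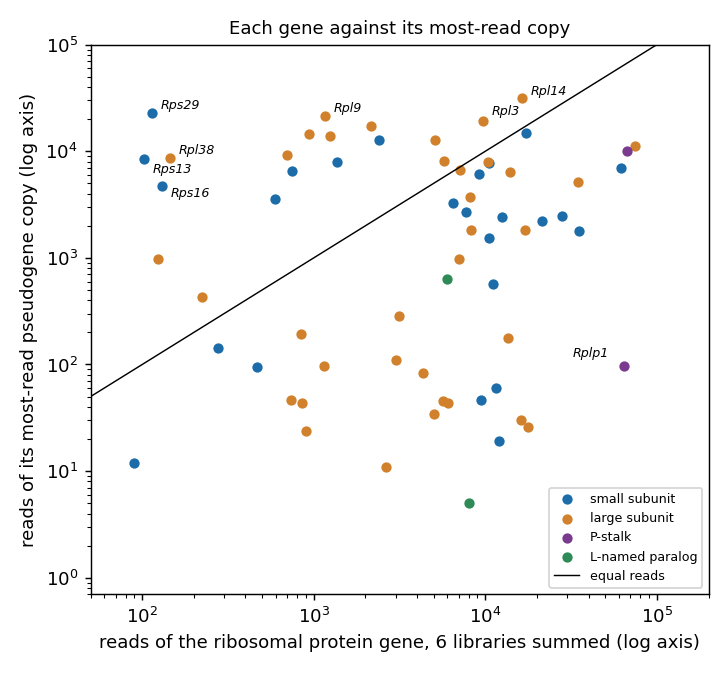
Reads of each ribosomal protein gene (horizontal, log axis) against reads of its most-read pseudogene copy (vertical, log axis), summed over the 6 libraries, with a line at equal reads and colours for the class of the gene. Points above the line, such as Rps29 with 114 reads against 22794 on Gm14303, are the 19 genes whose copy was counted more often.

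The difference between burn and control in the summed share of the copies was below the spread within groups. They held 0.158% ± 0.0279 of reads in genes in controls and 0.160% ± 0.0216 after burn (SD, n = 3 each). Of the 74 assigned copies that could be tested, 0 were called by edgeR and 1 had an unadjusted p under 0.05. Their median log2 fold change was 0.06. With the reads of copies added to their members, again 0 members were called, 0 had an unadjusted p under 0.05, and the median log2 fold change of the members was 0.04. It cannot be told from counts whether a read on a processed copy came from the copy or from the spliced messenger RNA of the parent.

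Some of the paralogs with l in their symbols are known for expression in few tissues. Rpl3l, the striated-muscle form of Rpl3, was the most variable member. Its level was 22.4, 7.68 and 1.52 CPM in control 1, 2 and 3 and 6.45, 20.6 and 4.15 CPM in burn 1, 2 and 3. The groups overlapped. The fold change was -0.02 on the log2 scale (SE 1.06), with an edgeR adjusted p of 0.9998. This value near 0 rested on 1 high library in each group: it was 1.24 without control 1 and -1.0 without burn 2, and 0.58 with limma-voom. Transcripts of 14 skeletal muscle genes took 1.31%, 0.439% and 0.0744% of the reads in the same controls and 0.314%, 1.14% and 0.187% in the burn libraries, in the same order as Rpl3l. There were from 1.74 (control 1) to 2.12 (burn 1) Rpl3l reads per 1000 muscle reads, a range far narrower than that of Rpl3l itself. As a share of Rpl3 and Rpl3l together, Rpl3l ranged from 4.13% (95% Wilson interval 3.46 to 4.91) in control 3 to 36.4% (34.5 to 38.4) in control 1. Of the coding windows of Rpl3, 93.4% have a copy, while Rpl3l has no copied window. Over the 6 libraries Rpl3 had 9647 reads and its copy Rpl3-ps1 had 19383. Reads on copies did not enter this share, so that of Rpl3l may be too high.

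**Figure D5:**
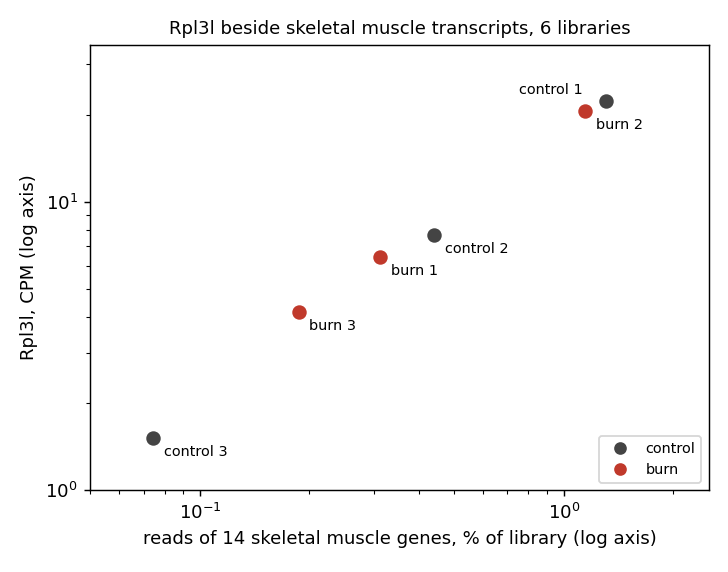
CPM of Rpl3l against the percent of reads held by 14 skeletal muscle genes, 1 point per library, both axes logarithmic, with controls in grey and burn libraries in red. The 6 libraries fall in the same order on both axes, from control 3 (1.52 CPM, 0.0744%) to control 1 (22.4 CPM, 1.31%).

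Rpl22l1, the paralog of Rpl22, had 29.4, 25.3 and 27.3 CPM in controls and 28.9, 28.4 and 43.5 CPM after burn. Only burn 3, the library marked IP and also among the deepest, stood above the others. Rpl22 too was highest in burn 3, at 153.8 CPM against 115.9 to 135.6 CPM in the other libraries. The log2 fold change of Rpl22l1 was 0.30 (SE 0.18; edgeR, adjusted p = 0.9998), and 0.08 without burn 3. It made up 15.7% to 19.95% of the reads of Rpl22 and Rpl22l1 in the other 5 libraries and 22.05% in burn 3 (95% Wilson interval 21.3 to 22.8). Of the coding windows of Rpl22l1, 71.5% have a copy, against 8.95% of those of Rpl22. An antisense gene, Gm33051, overlaps the exons of Rpl22l1. Rpl7l1, a paralog of Rpl7, held 24.4% to 30.3% of the reads of its pair, with 50.8 ± 2.73 CPM in controls and 49.2 ± 3.68 CPM after burn (SD, n = 3 each). Its log2 fold change was -0.05 (SE 0.11). Of the coding windows of Rpl7, 60.35% have a copy, against 7.80% of those of Rpl7l1, and reads on copies did not enter the share.

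Rps27l, the paralog of Rps27 known as a target of p53, had 26.5, 20.4 and 21.15 CPM in controls and 24.7, 24.3 and 25.5 CPM after burn, and its log2 fold change was 0.13 (SE 0.13). It held 97.9% to 99.2% of the reads of its pair, beside an Rps27 that was counted with 89 reads in all and has a copy of every coding window. Rpl10l, a form of Rpl10 known from the testis, had 9 reads in control 2, 2 in control 3 and 0 in the other 4 libraries. Rpl10, for which 91.9% of all windows have a copy, had 3.71, 3.51 and 2.97 CPM in controls and 4.51, 2.62 and 3.54 CPM after burn. Rpl39l had 3, 6 and 2 reads in controls and 0, 3 and 2 after burn, while Rpl39 had 841 to 5912. Rps12l1 had 2 reads in burn 3 and 0 elsewhere.

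The start of the messenger RNA was the remaining feature examined. Promoters of RefSeq, on build GRCm38.p6, run from 250 bases before to 50 bases after an annotated start. A tract was counted where the base at the start was C and at least the next 4 bases were C or T, on the gene's own strand. It was found at 13 of 74 member promoters (17.6%), which belong to 13 of 62 genes, and at 823 of 32851 promoters of all genes (2.51%). The match describes the annotated start and is neither a mapped start nor a site. The 6 printed starts belong to members named above and to Rpl15, which had the longest tract, chosen after it was seen. Each shows 15 bases on either side, with the tract in capitals, which begins at the annotated start.
Rps6, chr4:86857353-86857382, minus strand: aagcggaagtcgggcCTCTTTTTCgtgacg
Rps27, chr3:90213634-90213663, minus strand: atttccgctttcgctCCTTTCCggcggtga
Rpl28, chr7:4792950-4792979, plus strand: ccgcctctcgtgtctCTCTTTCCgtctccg
Rplp2, chr7:141447636-141447665, plus strand: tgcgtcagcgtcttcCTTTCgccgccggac
Rpl38, chr11:114668565-114668594, plus strand: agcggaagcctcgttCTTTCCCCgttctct
Rpl15, chr14:18270972-18271001, minus strand: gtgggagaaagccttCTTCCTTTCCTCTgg

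The tracts shown run from 5 bases (Rplp2) to 13 bases (Rpl15). The 13 tested members with a tract had a median log2 fold change of 0.07, and the 47 tested members with a promoter but no tract had one of 0.02. The difference between these medians was not tested. For members without a tract, only the annotated start lacks these letters.

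Genes around the ribosome were read from the same fit. Of 6 genes of ribosomal or ribosome-associated proteins whose symbols fall outside the rule, 0 were called. Fau, a fusion of a ubiquitin-like protein with a ribosomal protein, stood at -0.30 on the log2 scale (SE 0.25). Rpl36al stood at 0.09 (SE 0.15). Rpl36al held 83.8% to 87.6% of the reads of the pair it forms with the member Rpl36a. Rpl36a was counted with 842 reads in all and has a copy of every coding window, and copies of Rpl36al were not searched. Among 16 other genes, listed for translation or for messenger RNAs with an oligopyrimidine tract, 0 were called. The lowest p of this list belonged to Hnrnpa1 at -0.60 (SE 0.29), Tpt1 at -0.30 (SE 0.20) and Eef1b2 at 0.13 (SE 0.11). Eef1b2 did not overlap between groups, with 160.5 to 189.2 CPM in controls and 189.7 to 201.5 CPM after burn.

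Among 20 genes that control initiation, 0 were called. Rps6ka3, a kinase of the Rps6k family, stood at 0.40 (SE 0.23), with 230 CPM in burn 3 against 109 to 138 CPM in the other 5 libraries. Eif4ebp2, a repressor of cap-dependent initiation, stood at 0.24 (SE 0.19) and Mtor at 0.11 (SE 0.11). Of 37 tested genes of ribosome assembly, 0 were called, with Rrp1 at -0.22 (SE 0.14), Polr1d at -0.14 (SE 0.13) and Nolc1 at -0.13 (SE 0.11). Mitochondrial ribosomal proteins are encoded by other genes (Mrpl and Mrps), and of the 75 tested 0 were called. Their log2 fold change was below 0 in 59 of 75, with a median of -0.07, and Mrps36 (-0.56, SE 0.29), Mrpl34 (-0.29, SE 0.15) and Mrps26 (-0.24, SE 0.12) had the lowest p. Of 222 symbols of ribosomal protein pseudogenes ending in -ps, 40 could be tested and 0 were called, with Rpl39-ps at 0.42 (SE 0.25), Rpl36a-ps3 at 0.76 (SE 0.56) and Rpl36-ps2 at -0.50 (SE 0.42). All values in these lists are log2 fold changes of burn over control, and each list had 0 genes at an unadjusted p under 0.05.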

How the data were processed

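Stranded total RNA of 6 libraries was sequenced as single-end reads of 75 nucleotides, per the labels. The authors deposited raw read counts per gene symbol, 1 file per library, made with STAR, SAMtools and HTSeq on mm10 (GRCm38), per the submitters' processing notes. Versions, the annotation release and whether counting used strand: not given in the sources used here. The 5 HTSeq tally lines, 49.18% to 56.22% of all entries, name no gene and entered neither library sizes nor tests. Totals were 17273908 to 81968142 reads in genes.

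The members, gene lists and markers were chosen with earlier results of these data known. The test was that of edgeR 4.0.16 (R 4.3.3): filterByExpr (minimum count 10, minimum total 15), TMM, robust glmQLFit, then a two-sided glmQLFTest with group as the only term, Benjamini-Hochberg adjustment over 17534 genes, called at 0.05. The biological coefficient of variation was 0.221. The fit was tested on simulated data. Counts of libraries within a group differed beyond sampling noise (chi-square over degrees of freedom 40.5 to 189), so no pair was treated as 1 library deposited again. This does not show that they came from separate animals.

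Windows of 75 bases were searched in GENCODE mouse release 21 transcripts. A pseudogene, or a gene with a -ps symbol, was assigned as a copy where it held at least 10% of a member's windows of 50 bases. It also had to be among the counted symbols. Lengths came from the same release, and promoters from RefSeq (GRCm38.p6). Wilson intervals are at 95% and, without molecular identifiers, cover counting error only. Named were the 5 members with the lowest p in each direction, the 5 highest and 5 lowest per length, the stalk genes, Rpsa, Rps6, all paralogs, the 3 members with most copied windows, and 3 genes per related list. Other names were chosen after their values were seen. Alternatives included DESeq2 1.42.0 and limma-voom (limma 3.58.1), other scalings and filters, a depth term, thinning, leaving out each library and a replicate block. Adding the copies' reads was chosen after seeing the data. Some items are not reported here.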

Additional observations from a re-analysis of the deposited data

How the results depend on the processing

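The count of 0 called members held under all 21 other settings of the fit, among them DESeq2, limma-voom, other scalings and filters, thinning to the lowest total and leaving out each library (0 to 0). The count over all genes was 4 and moved to 7 at an adjusted p under 0.1, 14 without a filter, 28 with DESeq2, 38 with a depth term and 15 in the 4 libraries numbered 1 and 2. DESeq2 gave no adjusted p for 11999 genes. Leaving out each library gave 1 to 6 called genes. The median log2 fold change of the members ran from -0.0345 (without control 3) to 0.0971 (without control 1), and it was -0.000839 without burn 1. The summed share differed between burn and control by -0.0604 (without control 3) to 0.0315 percentage points (without burn 3). It was above 0 also without control 1 (0.0149) and control 2 (0.0197), and its main value was -0.00861. Libraries numbered 1 and 2 share only a number: their deviations correlated at -0.0903 and -0.0551, and a replicate block over them called 0 members, with a member median of 0.0152. The third burn library carries no number in the labels. The median level per length was 13.7 CPM per kilobase of all exons, 21.6 over the longest transcript and 30.2 over the mRNA searched. The median share of copied windows was 38%, 44.45% with windows of 50 bases and 81.72% in coding sequence. Of 475 values of named members under other settings, 38 had the other sign and 0 were called, and the lowest adjusted p was 0.625. Counting noise limits the members with few reads: 5 tested members had at most 10 reads in at least 1 library.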
